A study of Mus musculus with 40 samples.

Results

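The unfolded protein response genes described here are 10 genes of the endoplasmic reticulum (ER) stress pathway, Hspa5, Hsp90b1, Calr, Pdia4, Sdf2l1, Herpud1, Xbp1, Atf4, Ddit3 and Trib3. They were picked by name as genes of this pathway, with earlier results of these data known, from the 54513 gene rows of each of 3 expression tables, and all 10 were found in every table. Values are RPKM, reads of a gene relative to its exonic length and to all reads of the sample.

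RNA was sequenced from CD11b+ cells (microglia together with the monocytes and macrophages that enter a tumor), sorted from naive or tumor-bearing hemispheres of mice. The study asked how 7aaRGD, a peptide with the integrin-binding motif RGD that blocks the binding of SPP1 (osteopontin), acts on these cells alone and together with immune checkpoint blockade. At 21 days post implantation (DPI) of GL261 tdTomato+luc+, a murine glioma line, in C57BL/6 mice, the groups were vehicle (water), 7aaRGD, 7aaRAE (the control peptide, in which that motif is replaced) and naive mice without a tumor, with 3 samples each. At 28 DPI of GL261, vehicle and 7aaRGD had 4 samples each, and anti-PD-1 (an antibody against the checkpoint receptor PD-1) and 7aaRGD + anti-PD-1 (the combination) had 3 each. Vehicle and 7aaRGD mice of that experiment received control IgG in place of anti-PD-1. In Athymic Nude-Foxn1nu mice, which lack mature T cells, U87-MG RFP+, a human glioma line carrying a red fluorescent protein, was implanted, and vehicle, 7aaRGD and 7aaRAE had 3 samples each at 21 DPI. Peptides and vehicle were delivered into the tumor by osmotic pump. A sample pooled 2 animals at 21 DPI and came from 1 animal at 28 DPI.

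At 28 DPI the labels name nude mice, whereas the methods give C57BL/6 mice with GL261. H2-Ea-ps, an MHC class II gene that C57BL/6 mice do not express, was at most 0.0976 RPKM in every 28 DPI sample and between 22.5 and 374 RPKM in the U87-MG samples, so the 28 DPI samples carried the C57BL/6 pattern. The sorting marker Itgam (CD11b) was present in every group, with samples between 51.2 and 195 RPKM. The depth of each sample is unknown, because the values keep no read counts. The 3 tables were normalized separately, so tests were run only within a table and levels set across tables are descriptions.

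The unfolded protein response restores folding capacity when unfolded proteins build up in the ER. 3 sensors, IRE1 (Ern1), PERK (Eif2ak3) and ATF6, start it: ATF6 and the spliced form of XBP1 turn on chaperone and degradation genes, while PERK slows translation and lets ATF4 be made, which turns on Ddit3 (CHOP) and Trib3. In myeloid cells the pathway is known for its links to secretion, antigen presentation and cytokine production. The active form of XBP1 comes from splicing and ATF4 is controlled mainly in translation, and neither is seen in gene-level RNA.

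The members' promoters were searched for 4 short elements of this pathway, so that members with a match could be set beside those without one. The letters were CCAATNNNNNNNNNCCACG (the ER stress element, ERSE), ATTGG and CCACG with 1 base between them (ERSE-II), TGACGTG (core of the unfolded protein response element) and TGATGNAA (core of the C/EBP-ATF element bound by ATF4 and CHOP dimers), on both strands, in RefSeq windows on GRCm38.p6 from 250 bases before to 50 bases after each gene's start. ERSE was found in 39 of 32851 windows of that length (0.12%), and in 3 of the 10 members, Hspa5, Hsp90b1 and Calr. ERSE-II was found in 12 windows (0.04%), among them that of Herpud1. TGACGTG was found in 661 windows (2.01%) and in Hspa5 alone among the members. TGATGNAA was found in 1304 windows (3.97%), with matches in Herpud1 and Trib3, the latter from position 14 to 21 after the start. The windows of Ddit3, Atf4, Xbp1, Pdia4 and Sdf2l1 held none of the 4 sets of letters. No match overlapped another. The 250 bases before the start are shown for the 4 members with an ERSE or ERSE-II match, 5′ to 3′ on the strand of the gene, with the matches in capitals.

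Hspa5, chr2:34771840-34772089, + strand: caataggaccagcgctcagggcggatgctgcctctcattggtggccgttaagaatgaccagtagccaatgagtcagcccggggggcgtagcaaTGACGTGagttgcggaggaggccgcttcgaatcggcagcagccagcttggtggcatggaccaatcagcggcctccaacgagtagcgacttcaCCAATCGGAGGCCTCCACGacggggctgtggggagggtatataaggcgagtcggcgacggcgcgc
Hsp90b1, chr10:86705445-86705694, - strand: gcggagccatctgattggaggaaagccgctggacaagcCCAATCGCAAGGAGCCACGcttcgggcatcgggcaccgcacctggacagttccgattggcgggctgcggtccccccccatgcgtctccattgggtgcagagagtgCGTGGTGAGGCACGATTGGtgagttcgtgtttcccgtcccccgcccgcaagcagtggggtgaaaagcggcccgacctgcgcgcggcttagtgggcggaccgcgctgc
Calr, chr8:84846932-84847181, - strand: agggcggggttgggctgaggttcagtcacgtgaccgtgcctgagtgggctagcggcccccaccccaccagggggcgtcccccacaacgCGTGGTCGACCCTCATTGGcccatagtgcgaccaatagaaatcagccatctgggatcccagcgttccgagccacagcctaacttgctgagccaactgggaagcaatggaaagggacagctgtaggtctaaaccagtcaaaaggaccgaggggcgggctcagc
Herpud1, chr8:94386179-94386428, + strand: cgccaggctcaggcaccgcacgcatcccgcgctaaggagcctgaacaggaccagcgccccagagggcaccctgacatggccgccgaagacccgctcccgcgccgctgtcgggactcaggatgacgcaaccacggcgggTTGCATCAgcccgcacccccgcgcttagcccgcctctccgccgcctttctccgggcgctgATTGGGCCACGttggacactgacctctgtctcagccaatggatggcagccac

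In Hspa5 the capitals are TGACGTG (from -157 to -151 relative to the start) and an ERSE (from -65 to -47). Hsp90b1 has an ERSE on either strand (from -212 to -194 and from -107 to -89), Calr has 1 on the opposite strand (from -162 to -144), and Herpud1 has a C/EBP-ATF core on the opposite strand (from -112 to -105) and an ERSE-II (from -52 to -42). The match of letters is a description and not evidence of binding. Members and elements were both picked as parts of this pathway, so the shares of all windows set beside the members test no enrichment. Only exact letters within the window were searched, so a member without a match may still have such an element.

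The levels of the members differed widely. Calr (chr8:84841850-84846934), a calcium-binding chaperone of glycoproteins, had the highest level in every group, with group means between 304 and 561 RPKM. Hspa5 (BiP; chr2:34771970-34777547), the chief Hsp70 of the ER, and Hsp90b1 (GRP94; chr10:86690209-86705509), the ER form of Hsp90, followed with group means of 135 to 328 and 142 to 296 RPKM. Pdia4 (chr6:47796141-47813430), a protein disulfide isomerase, had group means of 57.2 to 119 RPKM. Sdf2l1 (chr16:17130138-17132383), a partner of BiP and its J-domain cochaperones, had means of 54.8 to 111 RPKM. Xbp1 (chr11:5520659-5525893) and Atf4 (chr15:80255184-80257541), the transcription factors, were the steadiest of the members, with a ratio of highest to lowest group mean of 1.60 and 1.33. Herpud1 (chr8:94386438-94395377), a membrane protein of ER-associated degradation, ranged from 32.0 to 112 RPKM. Ddit3 (chr10:127290774-127296288), the transcription factor CHOP that promotes cell death under lasting stress, ranged from 6.72 to 15.4 RPKM. Trib3 (chr2:152337422-152344032), a pseudokinase induced by ATF4 and CHOP, was the lowest member and had the widest range, from 0.223 to 4.47 RPKM (20.1-fold). These gene positions are on mm10, the build of the files.

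At 28 DPI the ER chaperones were higher in CD11b+ cells after anti-PD-1. Of the 10 members 6 rose and 0 fell against vehicle (limma on log2(RPKM + 1), adjusted p under 0.05), whereas 10.8% of all 9732 genes tested rose and 12.2% fell. The 6 were Hspa5, Hsp90b1, Calr, Pdia4, Sdf2l1 and Ddit3. Their group means were 1.23 to 1.68 times those of vehicle, and the median log2 fold change of the 10 members was 0.45, beside -0.01 for all genes.

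Hspa5 was at 121, 122, 168 and 129 RPKM in the 4 vehicle samples and at 245, 224 and 212 in the 3 anti-PD-1 samples. The anti-PD-1 samples all lay above vehicle, and the highest vehicle sample was replicate 3. The log2 fold change was 0.75 (SE 0.15, adjusted p = 0.0037). Hsp90b1 was at 122, 150, 165 and 130 RPKM in vehicle and 212, 231 and 242 after anti-PD-1, again without overlap. Its log2 fold change was 0.69 (SE 0.12, adjusted p = 0.0018). Over all 9732 genes, 3159 likewise had no overlap between anti-PD-1 and vehicle samples. Calr, which was at 258, 332, 347 and 279 RPKM in vehicle, reached 459, 490 and 457 after anti-PD-1, a log2 fold change of 0.63 (SE 0.13, adjusted p = 0.0045). These were the 3 members with an ERSE in the promoter window.

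Members without an ERSE match rose too. Sdf2l1 was at 53.0, 51.7, 66.5 and 48.1 RPKM in vehicle and at 93.5, 88.6 and 78.4 after anti-PD-1, a log2 fold change of 0.66 (SE 0.14, adjusted p = 0.0051). Pdia4 was at 42.0, 59.9, 72.5 and 54.4 RPKM in vehicle and at 82.9, 105 and 94.5 after anti-PD-1, a log2 fold change of 0.73 (SE 0.19, adjusted p = 0.014). Without anti-PD-1 replicate 2, its highest sample, Pdia4 no longer passed (0.65, adjusted p = 0.066). Ddit3 moved least among the called members, from 7.12, 7.87, 8.81 and 8.16 RPKM to 10.6, 9.04 and 9.85, a log2 fold change of 0.27 (SE 0.084, adjusted p = 0.035). The Ddit3 call was the weakest, since it was lost without vehicle replicate 1, 2 or 4, and without anti-PD-1 replicate 1 (log2 fold change 0.22, adjusted p = 0.13) or 3. It was also lost with no filter on low values (adjusted p = 0.0515), with only the groups compared in the fit (0.0569) and with 1 residual degree of freedom less (0.0524).

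The other 4 members did not pass. Herpud1 had a mean of 45.3 ± 9.09 RPKM in vehicle (SD, n = 4) and 32.0 ± 4.07 after anti-PD-1 (SD, n = 3), with overlapping samples (log2 fold change -0.48, adjusted p = 0.074). At the threshold of 0.05 it passed as a fall under 1 of the alternatives run, without vehicle replicate 4, the lowest vehicle sample (-0.59, adjusted p = 0.037). Atf4 had means of 56.0 ± 11.9 and 62.4 ± 4.15 RPKM, and Xbp1 70.0 ± 8.26 and 65.9 ± 6.32. Trib3 was at 1.99 ± 0.49 RPKM in vehicle and 1.79 ± 0.66 after anti-PD-1. Atf4, Xbp1 and Trib3 also overlapped between the groups.

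**Figure D1:**
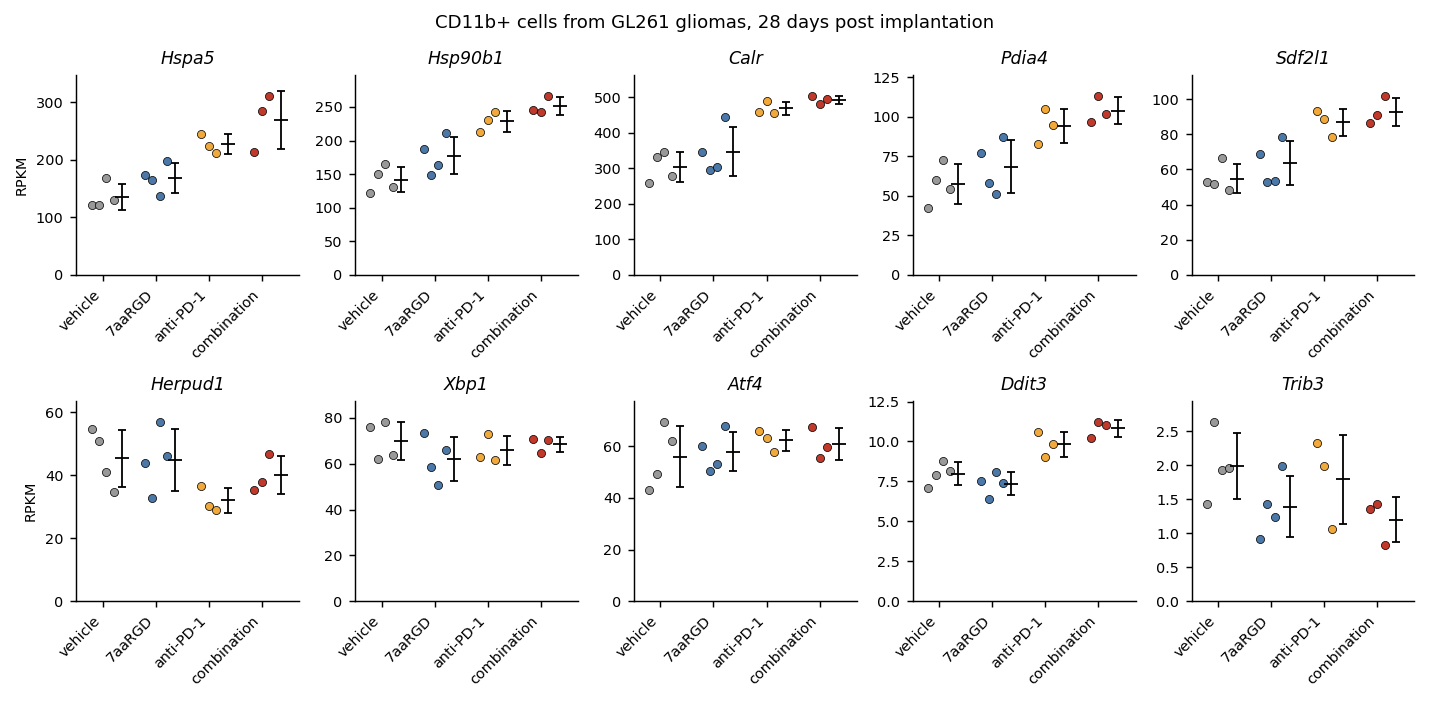
RPKM of the 10 members in CD11b+ cells at 28 days post implantation of GL261, with 1 point per sample and bars for mean ± SD (n = 4 for vehicle and 7aaRGD, n = 3 for anti-PD-1 and the combination). The anti-PD-1 and combination samples of Hspa5 lie between 212 and 311 RPKM, above all vehicle samples (121 to 168), whereas the groups of Xbp1 and Atf4 overlap.

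The combination of 7aaRGD and anti-PD-1 gave the same 6 calls against vehicle: 6 of 10 members rose and 0 fell, beside 17.5% and 25.8% of all genes. The median log2 fold change of the members was 0.55, and that of all genes -0.05. Hspa5 was at 213, 285 and 311 RPKM (log2 fold change 0.98, SE 0.15, adjusted p = 0.00022), so its mean was 1.99 times that of vehicle. Hsp90b1 was at 246, 242 and 266 RPKM (log2 fold change 0.83, SE 0.12, adjusted p = 0.00015). Calr was at 503, 481 and 496 RPKM (log2 fold change 0.71, SE 0.13, adjusted p = 0.00084). The combination samples of all 3 lay above every vehicle sample. Separation of these 2 groups was common, being found for 4752 of all 9732 genes.

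Pdia4 was at 96.4, 113 and 102 RPKM in the combination samples (log2 fold change 0.87, adjusted p = 0.0024), and Sdf2l1 at 86.4, 90.8 and 102 (0.76, adjusted p = 0.00084). Ddit3 was at 10.2, 11.2 and 11.1 RPKM (0.40, SE 0.084, adjusted p = 0.0021). Trib3 was at 1.35, 1.43 and 0.82 RPKM, below all vehicle samples, but did not pass (-0.44, adjusted p = 0.075). The gap was narrow, with the highest combination sample at 1.426 RPKM and the lowest vehicle sample at 1.435. Trib3 passed when only the groups compared were fitted (adjusted p = 0.039) or without vehicle replicate 1 (adjusted p = 0.047). With median-of-ratios scaling the split over all genes was 2189 higher and 2105 lower, in place of 1706 and 2508.

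Against 7aaRGD alone, 6 of 10 members also rose with the combination and 0 fell, beside 13.0% and 23.6% of all genes. These were Hspa5 (log2 fold change 0.67, SE 0.15, adjusted p = 0.0041), Pdia4 (0.62), Sdf2l1 (0.56), Calr (0.53), Hsp90b1 (0.51) and Ddit3 (0.50, SE 0.084, adjusted p = 0.00066). Pdia4 lost its call without 7aaRGD replicate 3 (adjusted p = 0.051) or without combination replicate 2 (adjusted p = 0.069). With median-of-ratios scaling 1704 genes were higher and 1622 lower over all genes, in place of 1268 and 2292. This comparison shares the combination samples with the one before.

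Against anti-PD-1 alone, 0 of 10 members passed in the combination (limma). Of the members 8 had a higher mean and their median log2 fold change was 0.11, whereas 38.9% of all genes had a higher mean and the median of all genes was -0.04. The 95% intervals of the log2 difference reached from -0.12 to 0.58 for Hspa5, -0.14 to 0.42 for Hsp90b1 and -0.23 to 0.38 for Calr, and 0 of 10 members had an unadjusted p under 0.05. Over all genes 0.0411% passed, and 1460 had an unadjusted p under 0.05. The combination samples of Hspa5 overlapped those of anti-PD-1, with combination replicate 1 (213 RPKM) below 2 of the 3 anti-PD-1 samples. The interaction term, which tests whether the combination departs from the sum of both treatments on the log2 scale, called 0 of 10 members and 0.0% of all genes (limma; 0 members and 794 genes at an unadjusted p under 0.05). Its largest value among the members was 0.33 (Herpud1, 95% interval -0.22 to 0.88).

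7aaRGD alone called none of the members against vehicle at 28 DPI, where 0.647% of all genes passed. Hspa5 was at 173, 166, 137 and 198 RPKM, overlapping vehicle, with a log2 fold change of 0.31 (SE 0.14, adjusted p = 0.32). Hsp90b1 was at 188, 148, 163 and 211 RPKM (0.32, SE 0.11, adjusted p = 0.21). These 2 had an unadjusted p under 0.05 (limma), as did 1421 of all 9732 genes. The 7aaRGD samples spread widely, and replicate 4 had the highest Hspa5, Hsp90b1, Calr (444 RPKM), Sdf2l1 (78.6) and Pdia4 (87.1) of its group. The median log2 fold change of the members was 0.12, beside 0.01 for all genes.

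**Figure D2:**
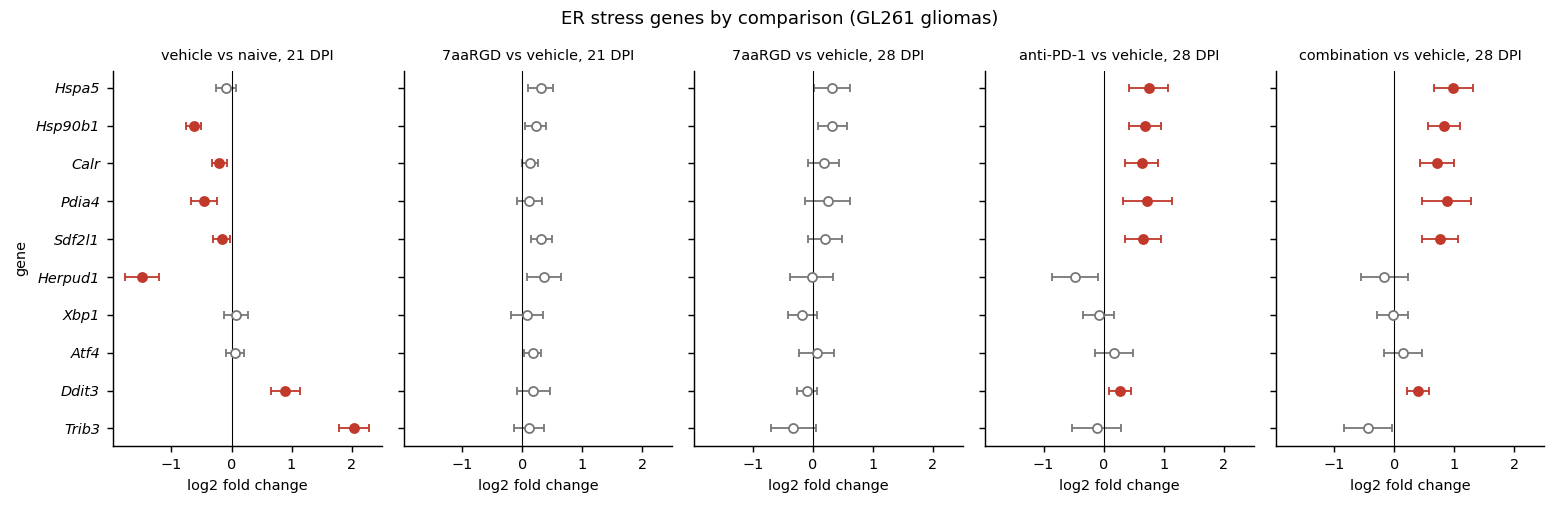
Log2 fold change of the 10 members in 5 comparisons, with 95% intervals, and filled red points where the adjusted p was under 0.05. The 6 called members lie to the right of 0 for anti-PD-1 and for the combination, and Trib3 (2.04) and Herpud1 (-1.49) stand farthest from 0 for vehicle against naive.

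Markers of several cell types moved in the same comparisons. The summed RPKM of 8 monocyte and macrophage markers was 2759 to 3270 in vehicle, 2459 to 3600 in 7aaRGD, 4200 to 6412 in anti-PD-1 and 5775 to 7629 in combination samples, and 5 of the 8 markers rose in either treated group against vehicle. Most of each sum was Lyz2, with means of 2691 RPKM in vehicle, 2471 in 7aaRGD, 4546 with anti-PD-1 and 6232 with the combination. Beside Lyz2 the markers that rose were Plac8, Ly6c2, Ccr2 and Vim. Of 8 microglia markers 1 rose with anti-PD-1 and 5 with the combination. The sum of 8 T and NK cell markers was 3.25 to 8.77 RPKM in vehicle, 2.14 to 47.0 in anti-PD-1 and 18.4 to 62.0 in combination samples. Of the 4 markers tested, 0 rose with anti-PD-1 and 3 with the combination. Among these 3, Prf1 (0.623 RPKM in vehicle and 7.63 with the combination) and Ncr1 (0.233 and 3.16) reached the minimum of 1 RPKM through treated samples. Their calls against vehicle could therefore only be rises. Of 3 dendritic cell markers tested, Cd209a (0.271 RPKM in vehicle, 4.56 with anti-PD-1 and 6.24 with the combination) and Ccr7 (0.684, 2.66 and 5.45) rose in either group, both having reached the minimum of 1 RPKM through treated samples, and Itgax fell with the combination (206 to 136). Of 8 neutrophil markers listed, Csf3r rose in either group (68.7 RPKM to 108 and 124), and Retnlg fell with the combination (46.5 to 5.53). The others of that list did not pass or were not tested.

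Markers listed for other lineages moved as well. Of 7 oligodendrocyte lineage markers tested 2 rose and 3 fell in either group, the falls being Olig1 (12.5 RPKM in vehicle, 5.39 with anti-PD-1 and 2.88 with the combination), Sox10 (7.33, 2.88 and 1.71) and Olig2 (3.91, 1.98 and 0.840). Of 3 markers tested from the endothelial list 2 rose in either group, Flt1 (1.80 RPKM to 6.18 and 7.33) and Kdr (0.973 to 1.53 and 1.61). Kdr lay near the minimum of 1 RPKM, and whether either transcript came from endothelial cells was not tested. Markers of B and plasma cells, which secrete heavily and hold much ER, summed to 6.12 to 9.52 RPKM in vehicle, 6.79 to 9.26 in anti-PD-1 and 8.87 to 11.6 in combination samples. Most of that sum was Cd79b, the only 1 of the 8 markers tested, which did not pass (7.19, 6.62 and 7.92 RPKM on average). Tnfrsf17 was at 0.515, 1.28 and 1.80 RPKM and Jchain at 0.0320, 0.0670 and 0.238, whereas Mzb1 was listed at 0 in every group and Ms4a1 and Pou2af1 stayed under 0.1 RPKM on average. In bulk samples a change in the share of a cell type and a change of RNA per cell cannot be told apart, and the part of the cell mix in these rises was not tested.

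Other genes of the pathway were described by lists, whose counts stand beside the shares of all genes given above (10.8% rose and 12.2% fell with anti-PD-1, 17.5% and 25.8% with the combination). Of 25 other ER chaperones and folding enzymes tested, 10 rose and 1 fell with anti-PD-1 (median log2 fold change 0.16), and 14 rose and 1 fell with the combination (0.28). The last count was 9 without combination replicate 3. The largest rises with anti-PD-1 were those of Creld2, an ER stress protein with isomerase activity (37.4 against 20.3 RPKM), Pdia6, a disulfide isomerase (80.4 against 44.9), and Hyou1, the nucleotide exchange factor of BiP (34.6 against 19.9). With the combination they were Creld2 (44.8 RPKM), Hyou1 (42.5) and Ero1l, the oxidase that drives disulfide formation (12.5 against 5.81). Tor1a, an ATPase of the ER lumen, fell in either group, from 34.8 RPKM to 28.1 with anti-PD-1 and 27.0 with the combination.

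Few genes of ER-associated degradation rose. Of 24 tested besides Herpud1, 1 rose and 6 fell with anti-PD-1, and 1 rose and 8 fell with the combination, where the share that fell was near that of all genes. With median-of-ratios scaling 3 rose and 6 fell with the combination. Ubxn8, which tethers the p97 ATPase to the ER, went from 13.0 RPKM in vehicle to 8.46 with anti-PD-1 and 6.90 with the combination. Erlec1, an ER lectin, went from 16.4 to 11.8 and 9.81 RPKM, and the ubiquitin-conjugating enzyme Ube2j2 from 13.3 to 9.95 and 8.66. Faf2 was the gene that rose (7.06 to 8.13 and 8.45 RPKM). Of 22 translocon and ER export genes 1 rose and 2 fell with anti-PD-1, and 4 rose and 3 fell with the combination (1 rose without combination replicate 2, and 7 rose with median-of-ratios scaling), counts close to the shares of all genes or under them. Among them were Spcs3 of the signal peptidase (19.8 to 25.0 and 25.9 RPKM) and Ssr4 of the translocon (46.8 to 34.1 and 28.0).

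Among 10 sensors and processing genes, 1 rose and 3 fell with anti-PD-1, and 2 rose and 5 fell with the combination. Rtcb, the ligase that joins the spliced Xbp1 RNA, fell from 189 RPKM in vehicle to 128 and 101. Eif2ak3 (PERK) fell with anti-PD-1 from 9.34 to 7.44 RPKM. Ern1 (IRE1) rose with the combination from 6.50 to 8.71 RPKM, Atf6 fell from 17.8 to 13.5, and Atf6b rose in either group (32.4 to 43.5 and 46.1).

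Of 30 other genes on the ATF4 and CHOP side, 5 rose and 2 fell with anti-PD-1, and 6 rose and 6 fell with the combination, again near the shares of all genes. Ero1l stands in this list as well as in that of the chaperones, and was among the rises in either group. The rises with anti-PD-1 were 2 without anti-PD-1 replicate 2, and the falls with the combination were 2 without combination replicate 3. Ddit4, an inhibitor of mTORC1 signalling, fell from 100.4 RPKM in vehicle to 23.1 with anti-PD-1 and 11.5 with the combination. Atf3, a stress-induced transcription factor, rose with the combination from 33.1 to 89.3 RPKM. Phgdh (17.9 to 9.31) and Psat1 (8.97 to 4.54), enzymes of serine synthesis and known targets of ATF4, fell with the combination, and Nupr1 rose in either group (6.84 to 10.8 and 12.1 RPKM). Of 5 genes of eIF2α and its other kinases, 1 rose, Eif2ak2 (PKR, the kinase activated by double-stranded RNA), from 15.5 to 27.0 and 26.8 RPKM, and 1 fell, Eif2ak1 (18.8 to 15.8 and 14.2).

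Heat shock genes listed as cytosolic, which answer to unfolded protein outside the ER, also rose: 4 of 14 with anti-PD-1 and 9 of 14 with the combination, with 0 falling. The list also holds Hspd1 and Hspe1, whose products are mitochondrial. The 4 with anti-PD-1 were not stable, since the count ranged from 0 with the replicate block to 7 without anti-PD-1 replicate 3. Hsph1 was at 2.71 RPKM in vehicle, 5.54 with anti-PD-1 and 9.13 with the combination. Hspa1b (1.29 to 31.2 RPKM) and Hspa1a (1.17 to 26.7) rose with the combination, but they are near-identical copies. The paper counted only reads at or above a limit of mapping quality, so reads that fit both copies may be missing from both values. Of 12 immediate early genes, whose RNA is known to rise during tissue dissociation, 1 rose with anti-PD-1 and 6 rose and 1 fell with the combination (2 rose without combination replicate 3). The part of cell handling in these values was not tested. Lists of the combination against 7aaRGD moved likewise, with 9 of 25 other chaperones and 9 of 14 cytosolic heat shock genes rising and 0 falling in either list. These counts were 4 without combination replicate 3 and 5 without combination replicate 2, respectively, and the former was 15 with median-of-ratios scaling. In the combination against anti-PD-1, in the interaction and in 7aaRGD against vehicle at 28 DPI, 0 genes of these lists passed (limma), with 0 to 6 genes a list at an unadjusted p under 0.05.

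The genes whose levels varied most like Hspa5 between samples included other ER chaperones. Over the 14 samples at 28 DPI and 9731 other protein-coding genes, the genes with the highest Pearson r to log2(Hspa5 RPKM + 1) were Hyou1 (r = 0.99), Mgme1 (0.96), Hsp90aa1 (0.95), Manf (0.95) and Creld2 (0.95). Mgme1 is a mitochondrial nuclease, Hsp90aa1 a cytosolic Hsp90, and Manf a factor secreted under ER stress. Hyou1 was at 17.0, 17.6, 25.7 and 19.5 RPKM in vehicle, and at 36.0, 45.4 and 45.9 in the combination. Vehicle replicate 3 was thus the highest vehicle sample for Hspa5 and for Hyou1. These correlations include the differences between groups. After group means were taken out, Hyou1 remained first (r = 0.96), followed by Manf (0.95) and Hsp90aa1 (0.93).

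Among the members r with Hspa5 at 28 DPI was 0.95 for Sdf2l1, 0.92 for Hsp90b1, 0.91 for Pdia4, 0.90 for Calr and 0.77 for Ddit3. It was 0.49 for Atf4, 0.17 for Xbp1, -0.30 for Trib3 and -0.41 for Herpud1. Many genes had values of this size, and by r Hsp90b1 ranked 29, Pdia4 41, Calr 65 and Ddit3 766 among the 9731 genes. After group means were taken out, r was 0.81 for Sdf2l1, 0.66 for Pdia4, 0.54 for Hsp90b1, 0.54 for Calr and 0.34 for Ddit3, so only Sdf2l1 of these 5 stayed among the first 100 genes (rank 53).

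At 21 DPI of GL261 (12 samples) the leading genes were Stip1, Hsph1, Hsp90aa1, Nolc1 and Sfpq, the first 3 of which belong to the cytosolic heat shock system, and r of Hyou1 was not among the 5 highest. After group means were taken out none of these 5 led, and the highest r were those of Swt1, Yy1, Cacybp, Zfp952 and Nol8. In the U87-MG samples (9 samples) the leading genes were Fkbp4, Phtf1, Manf, Hyou1 and Sec31a, and without group means Fkbp4, Hnrnpa2b1, Spidr, Ssbp3 and Phtf1. The samples share libraries and normalization, so these values are descriptions and were not tested.

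**Figure D3:**
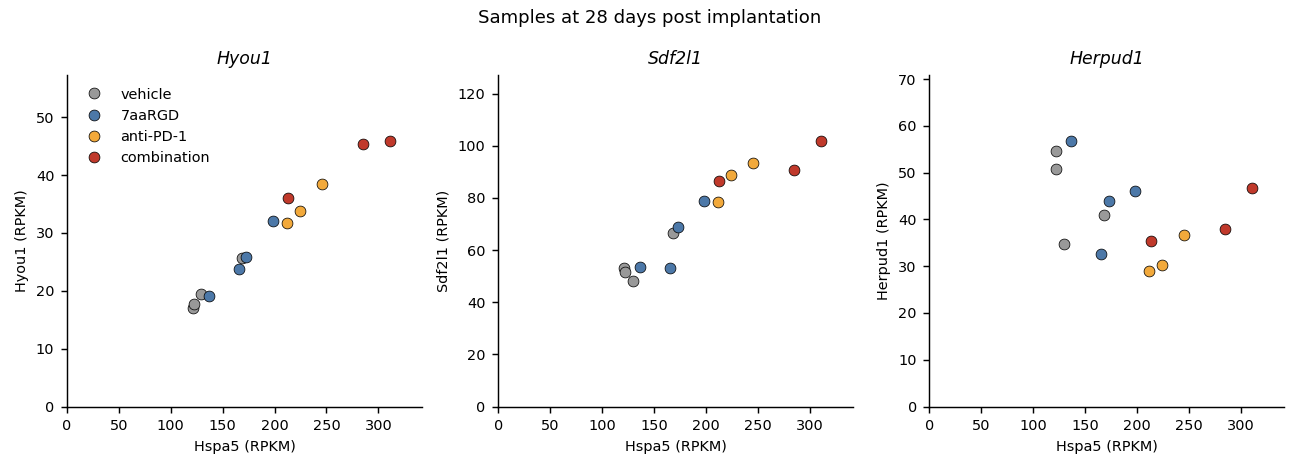
RPKM of Hyou1, Sdf2l1 and Herpud1 against RPKM of Hspa5 in the 14 samples at 28 days post implantation, colored by group. Hyou1 climbs with Hspa5 along a line (r = 0.99 over all samples and 0.96 after group means were taken out). Sdf2l1 does so with more scatter (0.95 and 0.81), and Herpud1 shows no such line (-0.41 and -0.06). These r are of log2(RPKM + 1), whereas the axes show RPKM.

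At 21 DPI the members moved in either direction in GL261 tumors. Against naive brain 2 members rose in vehicle-treated tumors (Ddit3 and Trib3) and 5 fell (Herpud1, Hsp90b1, Pdia4, Calr and Sdf2l1), beside 34.6% of all 9722 genes that rose and 48.2% that fell. With most genes called, a count of 7 of 10 members is near the background. The median log2 fold change of the members was -0.13, and that of all genes -0.14.

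Trib3 was at 0.16, 0.26 and 0.25 RPKM in naive mice and at 3.26, 4.40 and 4.58 in vehicle, without overlap. Its mean was 18.3 times higher, and the log2 fold change on the RPKM + 1 scale was 2.04 (SE 0.11, adjusted p = 6.56e-07). Trib3 reached the minimum of 1 RPKM through the vehicle samples only, so any call could only be a rise, and it adds nothing to a count of rises. Ddit3 was at 6.51, 6.63 and 7.02 RPKM in naive mice and at 11.3, 13.5 and 15.6 in vehicle (log2 fold change 0.90, SE 0.10, adjusted p = 6.54e-05). Atf4 was at 53.1 ± 0.95 and 55.2 ± 4.01 RPKM (SD, n = 3 each) and did not pass.

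Herpud1 had the largest fall, from 108, 115 and 114 RPKM in naive mice to 48.9, 34.6 and 35.9 in vehicle (log2 fold change -1.49, SE 0.12, adjusted p = 7.90e-06). Hsp90b1 fell from 288, 291 and 309.8 RPKM to 191, 189 and 192 (-0.63, SE 0.055, adjusted p = 1.17e-05). Pdia4 fell from 114, 122 and 121 RPKM to 90.7, 94.5 and 74.4 (-0.46, adjusted p = 0.0017). Calr fell from 555, 548 and 569 RPKM to 477, 488 and 489 (-0.20, adjusted p = 0.0094). Sdf2l1 fell from 96.3, 105 and 97.1 RPKM to 87.4, 93.6 and 85.5 (-0.16, adjusted p = 0.037). The last 2 falls were of the size of the shift in all genes. With median-of-ratios scaling, which moves the median of all genes by 0.148 to 0.005, Calr (-0.03, adjusted p = 0.63) and Sdf2l1 (0.0049, adjusted p = 0.95) were no longer called, whereas Atf4 (0.22, adjusted p = 0.017) and Xbp1 (0.25, adjusted p = 0.028) became called as higher. Under that scaling the split over all genes was 3975 higher and 3909 lower, in place of 3367 and 4690. Sdf2l1 also lost its call without any of 4 of the 6 samples (vehicle replicate 1 or 3, naive replicate 2 or 3), with adjusted p up to 0.15. Hspa5 was at 255, 288 and 303 RPKM in naive mice and 272, 262 and 258 in vehicle, which overlapped (-0.09, 95% interval -0.26 to 0.08), and Xbp1 was at 83.9 ± 5.95 and 88.7 ± 9.25 RPKM.

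The cells compared here differ in kind. All 8 microglia markers fell and all 8 monocyte and macrophage markers rose in vehicle against naive. The microglia sum was 15638 to 16190 RPKM in naive and 1294 to 1882 in vehicle samples, and the monocyte and macrophage sum 397 to 436 and 5927 to 6195. The part of this exchange of cells in the members' changes was not tested.

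**Figure D4:**
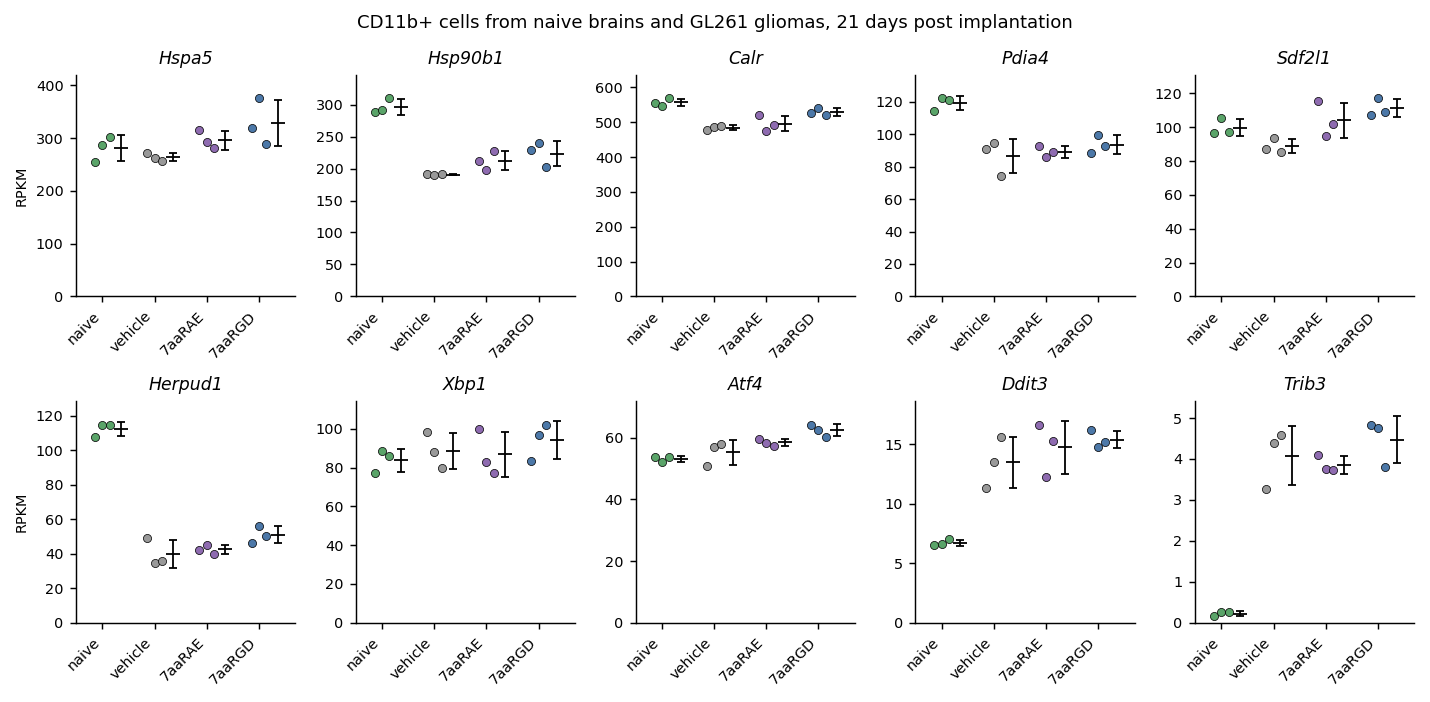
RPKM of the 10 members in CD11b+ cells at 21 days after GL261 implantation, and in naive mice, with 1 point per sample and bars for mean ± SD (n = 3 per group). Trib3 is at most 0.26 RPKM in naive mice and at least 3.26 in tumor-bearing samples, and Herpud1 is at least 108 RPKM in naive mice and at most 56.3 in tumor-bearing samples.

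In the pathway lists, 20 of 30 other genes of the ATF4 and CHOP side rose against naive and 7 fell (median log2 fold change 0.76), beside 34.6% and 48.2% of all genes. Among the 26 with a mean of at least 5 RPKM, 16 rose and 7 fell (0.49). Cebpb, a myeloid transcription factor, was at 56.8 RPKM in naive mice and 469.8 in vehicle, Ddit4 at 8.68 and 49.8, and the cystine transporter gene Slc7a11, which reached the minimum through the vehicle samples only and so could only rise, at 0.228 and 4.11. Phgdh fell from 41.0 to 14.3 RPKM and the tRNA exporter Xpot from 22.1 to 8.35. Of 24 degradation genes 1 rose and 21 fell (median log2 fold change -0.40), but 2 rose and 12 fell with median-of-ratios scaling (-0.24), with Edem2 (71.6 to 28.4 RPKM) and Edem3 (15.2 to 6.91) among the falls. Of 25 other chaperones 6 rose and 13 fell and of 22 translocon genes 7 rose and 12 fell, close to the shares of all genes. Among the chaperones were Ero1l (2.65 to 12.4 RPKM, rising) and Dnajb9 (30.1 to 13.0) and Lman1 (20.7 to 10.2, both falling). Of 10 sensors and processing genes 2 rose and 6 fell, with Creb3l2 (21.3 to 3.69 RPKM) and Eif2ak3 (13.5 to 6.52) among the falls and Rtcb (44.1 to 82.4) among the rises. Of 5 genes of eIF2α and its kinases 3 rose and 1 fell (Eif2ak2 rose from 5.86 to 20.7 RPKM), of 15 cytosolic heat shock genes 3 rose and 6 fell, and of 12 immediate early genes 9 rose and 0 fell.

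Neither peptide called a member at 21 DPI in GL261 tumors. For 7aaRGD against vehicle, 0.148% of all 9436 genes passed, and 0 of 10 members did (limma), 5 with an unadjusted p under 0.05 beside 1278 of all genes. All 10 members had a higher mean with 7aaRGD, as did 57.7% of all genes, and their median log2 fold change was 0.18, beside 0.02 for all genes. The samples of 5 members did not overlap (Hspa5, Hsp90b1, Sdf2l1, Calr and Atf4), as did those of 17.6% of all genes. Sdf2l1 was at 107, 117 and 109 RPKM with 7aaRGD (log2 fold change 0.32, SE 0.081, adjusted p = 0.18), above the vehicle samples (85.5 to 93.6). Hspa5 was at 319, 376 and 289.6 RPKM (0.31, SE 0.095, adjusted p = 0.25), above vehicle, and replicate 2 stood highest. Herpud1 was at 46.5, 56.3 and 50.2 RPKM (0.36, SE 0.13, adjusted p = 0.28), where vehicle replicate 1 overlapped.

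With the control peptide 7aaRAE, 0 members and 0.0% of all genes passed against vehicle (limma; 1 member, Sdf2l1, and 600 genes at an unadjusted p under 0.05). Of the members 8 had a higher mean, as did 52.0% of all genes, and their median log2 fold change was 0.10. Sdf2l1 was at 115, 94.9 and 102 RPKM with 7aaRAE (0.22, SE 0.081, adjusted p = 0.72), and Hspa5 at 316, 292 and 281 (0.16, SE 0.095, adjusted p = 0.72).

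The peptides differ in the residues RGD and RAE, the integrin-binding motif and its replacement. Set directly against each other at the same day, 0 members and 0.0% of all genes passed (limma; 0 members and 520 genes at an unadjusted p under 0.05). The means were higher with 7aaRGD for all 10 members, by 0.07 to 0.25 on the log2 scale, and for 58.2% of all genes. The 95% interval of the difference was -0.07 to 0.35 for Hspa5, -0.11 to 0.25 for Hsp90b1, -0.08 to 0.28 for Sdf2l1 and -0.03 to 0.54 for Herpud1. In each peptide comparison at 21 DPI none of the pathway lists held a called gene (limma), with 0 to 10 genes a list at an unadjusted p under 0.05. For the 14 cytosolic heat shock genes the median log2 fold change was 0.44 with 7aaRGD and 0.26 with 7aaRAE, and 10 and 1 of them had an unadjusted p under 0.05.

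In U87-MG tumors 9 members were tested, since Trib3 stayed between 0.41 and 0.92 RPKM, under the minimum. Against vehicle 0 of 9 passed with 7aaRGD, where 0.0% of all 9659 genes did (limma; 1 member and 364 genes at an unadjusted p under 0.05). With 7aaRAE 0 of 9 passed and 0.0104% of all genes did (1 member and 746 genes at an unadjusted p under 0.05). Between the peptides 0 of 9 and 0.0% passed (0 members and 326 genes at an unadjusted p under 0.05). In this table all 3 columns of a group carry the same name, so a column could be tied to its group but not to a single sample. The columns of each group are called A to C here, and the letters pair no samples between groups.

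Atf4 was the member with the lowest unadjusted p in either peptide group. It was at 52.7, 49.4 and 49.6 RPKM in vehicle, 60.0, 72.6 and 68.8 with 7aaRGD and 53.1, 70.9 and 67.3 with 7aaRAE, so neither peptide group overlapped vehicle. The log2 fold changes were 0.40 (SE 0.12, adjusted p = 0.94) and 0.32 (SE 0.12, adjusted p = 0.55), and the peptides differed by 0.08 (95% interval -0.19 to 0.35). Over all 9659 genes, 1045 did not overlap between 7aaRGD and vehicle, and 1590 between 7aaRAE and vehicle.

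The ER chaperones spread more widely in either peptide group than in vehicle. Calr was at 549.7, 591 and 541 RPKM in vehicle samples A to C, 667, 271 and 463 with 7aaRGD, and 575, 296 and 495 with 7aaRAE. Sample B was the lowest of its group in both peptide groups, also for Hspa5 (188 and 201 RPKM, vehicle 246 to 254), Hsp90b1 (153 and 187), Pdia4 (59.6 and 62.1) and Sdf2l1 (45.8 and 51.7). The B samples also had the lowest microglia marker sums of the table, 6498 RPKM with 7aaRGD and 7215 with 7aaRAE, beside 8111 to 10563 in the other 7, and the part of this in the chaperone levels was not tested. Sdf2l1 with 7aaRAE (81.7, 51.7 and 73.4 RPKM) lay below vehicle (86.9, 98.9 and 89.3), a log2 fold change of -0.43 (SE 0.27, adjusted p = 0.69). Without both B samples this was -0.24 (adjusted p = 0.76), and the log2 fold change of Calr with 7aaRGD went from -0.36 to -0.01. Between the peptides the differences were 0.06 for Hspa5 (95% interval -0.29 to 0.42) and -0.0025 for Calr (-0.73 to 0.73), so the intervals of this table are wide. Herpud1 had means of 79.7 ± 10.2, 85.6 ± 9.06 and 80.1 ± 6.12 RPKM in vehicle, 7aaRGD and 7aaRAE (SD, n = 3 each), between its levels in naive C57BL/6 brain (112 RPKM) and in GL261 tumors of vehicle mice at 21 DPI (39.8), which come from a table normalized separately.

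**Figure D5:**
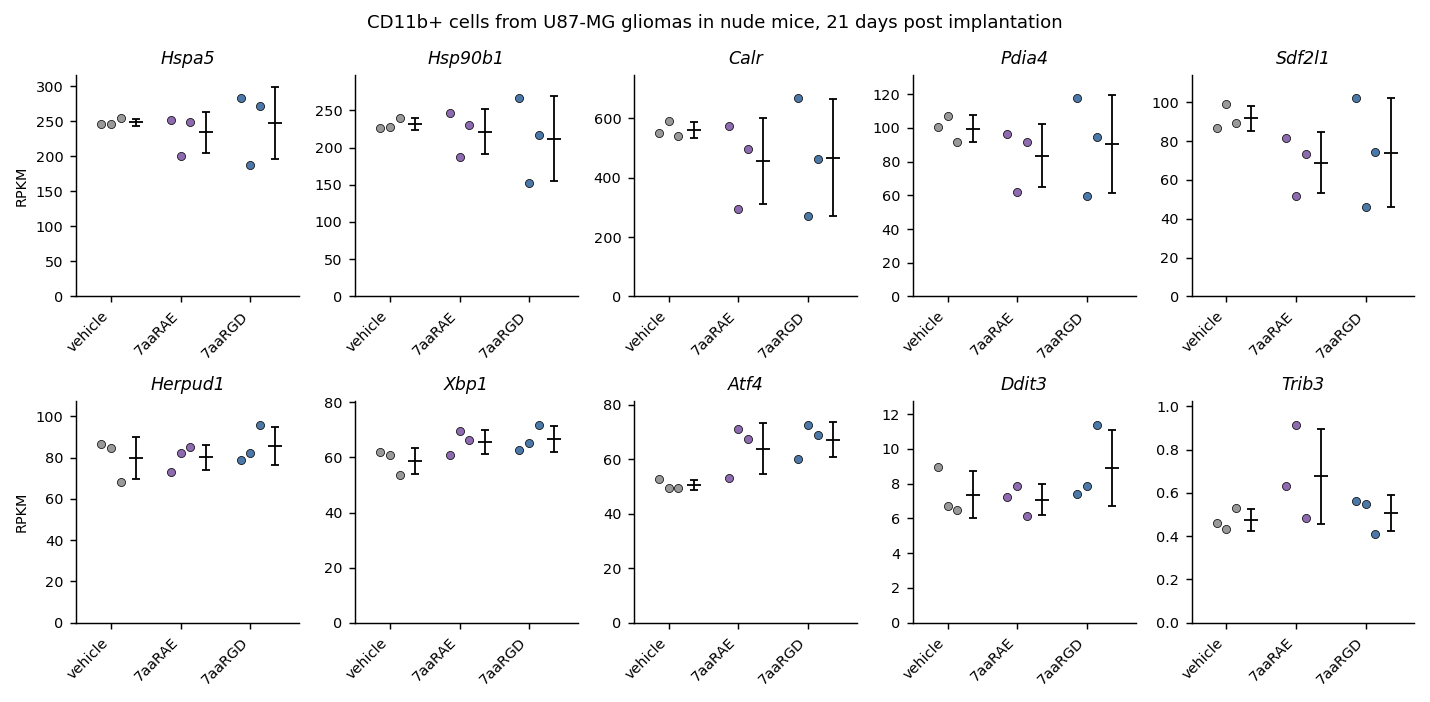
RPKM of the 10 members in CD11b+ cells from U87-MG gliomas in nude mice at 21 days post implantation, with 1 point per sample (A to C from left to right in each group) and bars for mean ± SD (n = 3 per group). The middle point of either peptide group is the lowest for Calr, Hspa5, Pdia4, Sdf2l1 and Hsp90b1, and vehicle samples lie close together.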

How the data were processed

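RNA of CD11b+ cells was analysed from 35 samples in 11 groups. Samples were grouped by the treatment in the labels. The fourth anti-PD-1 sample, the fourth combination sample and the naive nude mice are not analysed here. Reads were trimmed by the authors with Trimmomatic, aligned to mm10 with STAR and counted on genes with HTSeq-count 0.11.1, using strand. What the authors deposited was RPKM with 2 added. This was inferred from the values, because rows without signal were exactly 2 throughout and, after subtraction, the products of value and exonic length had almost equal sums across samples. The normalization and the constant are not given in the sources used here. Between 12.6% and 14.0% of values in rows with signal lay under the constant, so values had been altered after scaling. Deviations from group means spanned 7 of 8 possible dimensions (21 DPI), 9 of 10 (28 DPI) and 6 of 6 (U87-MG), counting a dimension at 10% or more of the largest. An alternative with 1 residual degree of freedom less was therefore tried in the GL261 tables. The plan had assumed a normalized unit with the same log transformation, which was kept.

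The constant was subtracted and negative values were set to 0. The log2(RPKM + 1) values were fitted in R 4.3.3 by limma 3.58.1 (eBayes with a trend), for protein-coding genes whose mean over the fitted samples was 1 RPKM or more, with Benjamini-Hochberg adjustment over all genes tested and a threshold of 0.05 (two-sided). Fold changes understate those of low genes on this scale. Tumor-bearing groups of a table were fitted together, and naive with vehicle alone. Of 54513 rows 98.9% matched the annotation. The scripts were tested on simulated data. Depth per sample is unknown and no counting interval can be given. The p-values cover the spread between samples only, as it stands in values that had been altered after scaling. If that step narrowed the spread, the p-values are too small, which was not tested. All 10 members were named, and from each pathway list, per comparison, at most 3 rises and 3 falls past the threshold without overlap of the groups, by size. Values of some single genes are left out here, while counts and sums over lists include them. The members and lists were chosen with earlier results of these data known.

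The replicate numbers were checked for pairing. Same-numbered samples deviated together (r above 0.1) for 1 of 9 pairs in the 21 DPI table and for 3 of 19 in the 28 DPI table. The values of r ran from -0.772 to 0.118 and from -0.499 to 0.366. No pairing by number was seen, but the values had been altered after scaling, so this check cannot exclude one. Alternatives were other pseudocounts, filters, scaling, gene sets and fits, a threshold of 0.1, the replicate block, and each sample left out. Leaving out sample B of both U87-MG peptide groups was chosen after seeing the data.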

Additional observations from a re-analysis of the deposited data

Results flagged for a closer look

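Hspa5 in vehicle replicate 3 at 28 DPI, at 168 RPKM, lay far above the other 3 vehicle samples (121 to 129). It was the only 1 of 20 groups of 4 samples tested for a sample far from the rest (Dixon's test), and chance gives about 1 in 20. Hyou1 (25.7 RPKM, other vehicle samples 17.0 to 19.5), Sdf2l1, Pdia4, Hsp90b1, Calr, Xbp1, Atf4 and Ddit3 were also highest in that sample among vehicle.

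Sdf2l1 had opposite differences for the control peptide 7aaRAE against vehicle in the 2 tumor models. Its log2 fold change was 0.22 in GL261 tumors at 21 DPI and -0.43 in U87-MG tumors, and 7aaRAE and vehicle samples were apart in either table. Such separation was found for 1191 of 9436 genes in GL261 and for 1590 of 9659 in U87-MG. In GL261 it was narrow, with the lowest 7aaRAE sample at 94.9 RPKM and the highest vehicle sample at 93.6. Neither difference passed (adjusted p = 0.72 and 0.69), and the difference between the models was not tested, since the tables were normalized separately.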

How the results depend on the processing

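The counts of members called kept within 1.5 times their main value in all 13 comparisons and under all alternatives that were run. They ranged from 5 to 7 for anti-PD-1 against vehicle, 6 to 7 for the combination against vehicle, 5 to 6 for the combination against 7aaRGD, and 6 to 7 for vehicle against naive. In the other 9 comparisons 0 members were called (limma) in any alternative. Of 2135 values of single members under an alternative, 2112 stayed on the same side of the threshold with the same direction if called, 17 lost their call, 5 gained one and 1 reversed: Sdf2l1 in vehicle against naive, at 0.0049 with median-of-ratios scaling. The replicate block, with numbers for which no pairing was seen, gave 6 members for anti-PD-1 against vehicle, 6 and 6 for the combination against vehicle and against 7aaRGD, and 7 for vehicle against naive. No paired analysis was possible for U87-MG because all 3 columns of a group carry the same name and could not be tied to single samples. Counts over all genes were less stable for small effects. At the threshold of 0.05 they moved from 14 to between 0 and 120 (without vehicle replicate 3) for 7aaRGD against vehicle at 21 DPI, from 63 to between 0 and 93 at 28 DPI, and from 4 to between 0 and 26 (without combination replicate 2) for the combination against anti-PD-1, and the cause was not tested. The looser threshold of 0.1 gave 27, 144 and 184. For anti-PD-1 against vehicle 2245 genes were called, but 1357 without anti-PD-1 replicate 2, where Pdia4 lost its call. For vehicle against naive 8057 were called, and 5286 with a mean of at least 5 RPKM, where fewer genes were tested. With 3 or 4 samples a group and no read counts, small differences could not be resolved, as the intervals of the U87-MG table show.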
